A study of Mus musculus with 3 samples.

Results

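The E proteins and their Id inhibitors were examined as the peaks of 2 histone marks in 5 windows of the mouse genome (build mm9), 1 window each around Tcf3, Tcf4, Tcf12, Id2 and Id3. A peak was taken as a member when it overlapped 1 of these windows, whatever its width or score. The windows were chromosome 10, 79855000 to 79915000, for Tcf3, chromosome 18, 69490000 to 69870000, for Tcf4 and chromosome 9, 71680000 to 71980000, for Tcf12. For Id2 and Id3 they were chromosome 12, 25750000 to 25810000, and chromosome 4, 135670000 to 135730000. In all, 52 of 47610 peaks were members: 29 of 29468 H3K27ac peaks and 23 of 18142 H3K4me3 peaks.

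The cells were a mouse pre-B acute lymphoblastic leukaemia kept in culture, in which the Bcr-Abl fusion kinase is the driving oncogene, with no stimulation or treatment. There was 1 ChIP-seq library for H3K27ac, a mark of active promoters and enhancers, 1 for H3K4me3, a mark of promoters, and 1 with control IgG, which had no peak list here. No further allele, strain or animal is given in the labels, and a cultured leukaemia driven by 1 oncogene is a limited model of normal B-cell precursors. With 1 library per mark, no value below has a replicate error and no test between samples was possible.

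E proteins are basic helix-loop-helix transcription factors that bind DNA as dimers at E-boxes, short sites of the form CANNTG. Id proteins carry the helix-loop-helix part but lack the basic region, so a dimer of an E protein with an Id protein does not bind DNA. Tcf3 is required for commitment to the B lineage, Tcf12 (also called HEB) is a partner E protein in early lymphocytes, and Tcf4 is best known for its role in plasmacytoid dendritic cells. Id2 is required for innate lymphoid and natural killer cells, and Id3 acts in T and B cells downstream of antigen receptor signals.

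The RefSeq promoters of the member genes (GRCm38.p6, 250 bases before to 50 after a start, in the direction of the gene) are shown for Id2, Id3 and the first and last of the 3 Tcf12 starts, because they differ in E-boxes and in CpG content. E-boxes (CANNTG, which reads alike on both strands) are in capitals. The positions in this paragraph belong to GRCm38.p6 and cannot be set against the mm9 peak positions used elsewhere.
Id2 (chr12:25096043-25096342, minus strand): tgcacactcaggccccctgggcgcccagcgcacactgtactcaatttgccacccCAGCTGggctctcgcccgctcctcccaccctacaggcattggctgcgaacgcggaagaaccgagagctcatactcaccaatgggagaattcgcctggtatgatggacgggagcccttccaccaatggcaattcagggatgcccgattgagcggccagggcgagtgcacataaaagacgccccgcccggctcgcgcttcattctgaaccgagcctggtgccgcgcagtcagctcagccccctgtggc
Id3 (chr4:136143572-136143871, plus strand): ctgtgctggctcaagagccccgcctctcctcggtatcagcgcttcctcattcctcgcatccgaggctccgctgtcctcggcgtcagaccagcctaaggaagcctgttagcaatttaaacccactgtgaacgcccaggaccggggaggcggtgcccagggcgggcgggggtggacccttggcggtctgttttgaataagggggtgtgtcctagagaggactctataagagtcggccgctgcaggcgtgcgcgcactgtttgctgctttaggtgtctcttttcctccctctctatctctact
Tcf12, first start (chr9:72111770-72112069, minus strand): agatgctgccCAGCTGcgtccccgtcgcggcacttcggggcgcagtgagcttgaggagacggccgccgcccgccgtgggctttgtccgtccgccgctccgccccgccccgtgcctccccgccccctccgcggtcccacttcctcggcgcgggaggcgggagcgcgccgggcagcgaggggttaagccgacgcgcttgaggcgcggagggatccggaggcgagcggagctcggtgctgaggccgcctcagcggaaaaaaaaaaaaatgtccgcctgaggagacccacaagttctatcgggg
Tcf12, last start (chr9:71896047-71896346, minus strand): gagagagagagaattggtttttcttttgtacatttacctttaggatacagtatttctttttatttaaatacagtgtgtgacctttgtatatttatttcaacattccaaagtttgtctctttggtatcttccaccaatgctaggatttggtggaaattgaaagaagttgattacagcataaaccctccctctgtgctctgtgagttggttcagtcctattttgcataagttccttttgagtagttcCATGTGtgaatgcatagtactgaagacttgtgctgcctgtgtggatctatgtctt

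Promoters were read for 4 of the 5 member genes. Chromosome 18, which carries Tcf4, was left out of this step, so nothing is said of Tcf4 promoters. The Id2 promoter and the first Tcf12 promoter each held 1 E-box, and in both it was CAGCTG. That sequence was present in 16.3% of the 32851 RefSeq promoters, while any CANNTG was present in 72.3%. The Id3 promoter held none in these 300 bases, the Tcf3 promoter held 1 (CACTTG) and the last Tcf12 promoter held 1 (CATGTG). The second Tcf12 promoter held 2, CAAGTG and CACTTG. CpG dinucleotides separated the Tcf12 starts: 41 and 45 in the first and second promoters, but 0 in the last, against a median of 7 over all promoters. Tcf3, Id2 and Id3 had 25, 21 and 19. These matches describe letters in a window and say nothing of binding.

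Each window held both marks, and H3K27ac reached further than H3K4me3 in every one, though at Id2 only barely. The whole H3K27ac list also covered more length than the H3K4me3 list, 65.8 against 35.7 Mb. Of the H3K27ac members, 17 of 29 (58.6%) overlapped H3K4me3, close to the 52.3% of all H3K27ac peaks. Of the H3K4me3 members, 20 of 23 (87.0%) overlapped H3K27ac, again near the 86.1% of all H3K4me3 peaks. The 12 H3K27ac members without H3K4me3 were spread over Tcf4 (4 peaks), Tcf3 (3), Tcf12 (3) and Id3 (2), and the 3 H3K4me3 members without H3K27ac lay at Tcf12 (2) and Tcf4 (1). At Id2 every peak carried both marks.

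**Figure D1:**
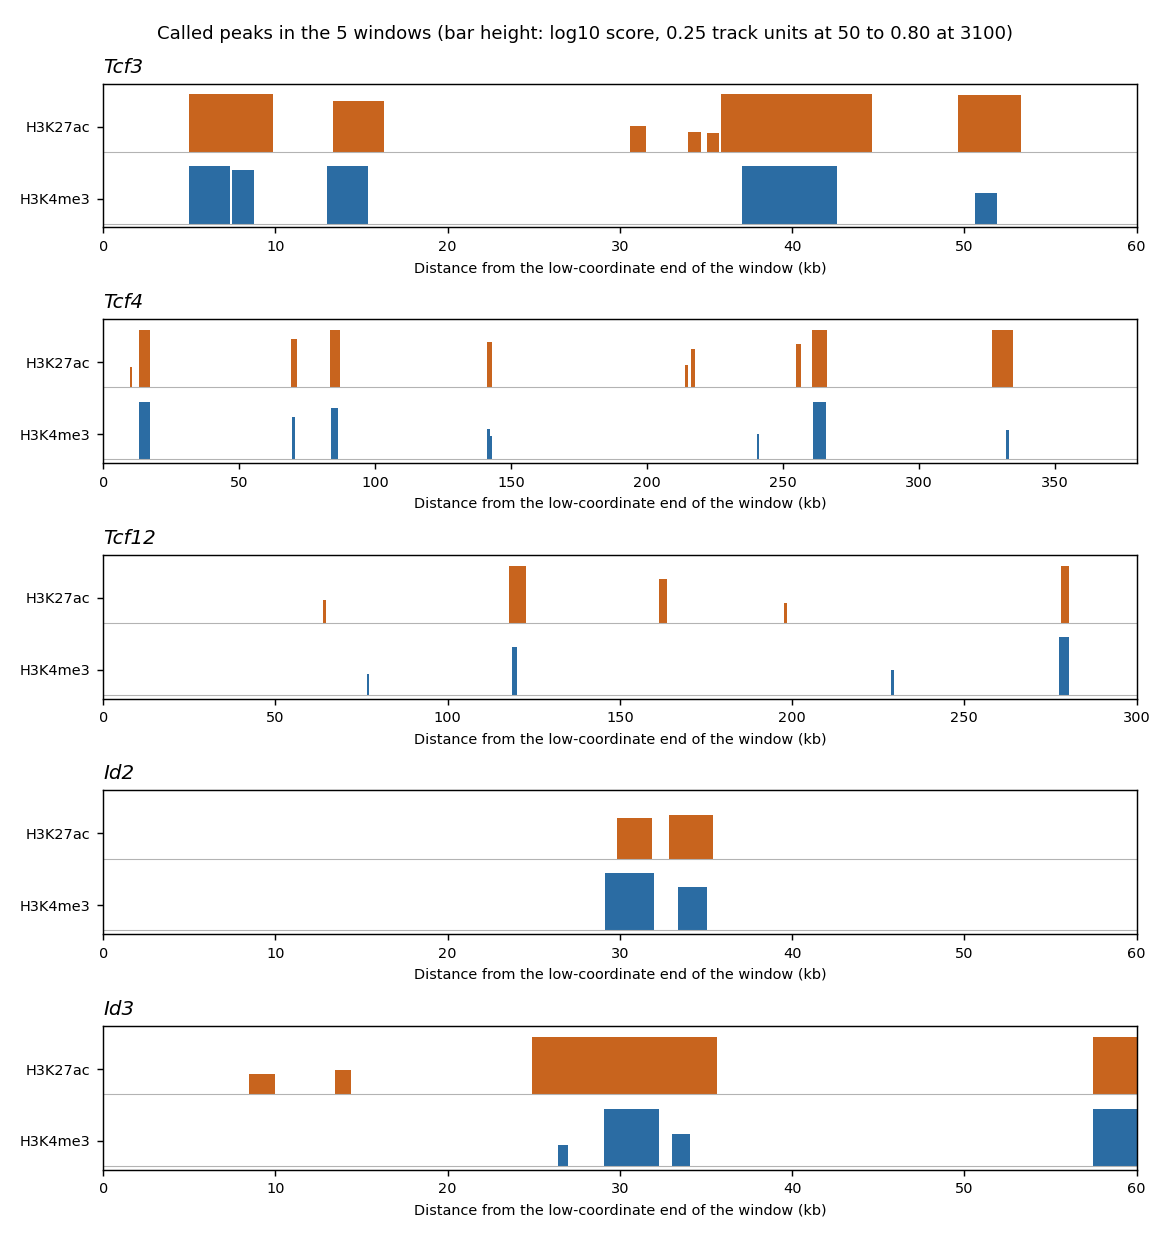
Called peaks of H3K27ac (orange, upper track) and H3K4me3 (blue, lower track) along each window, as distance in kb from its low-coordinate end. Bar width is peak width, cut at the window's ends and with a minimum drawn width for the narrowest peaks. Bar height follows the log10 of the deposited score. A sixth H3K27ac peak at Tcf12 starts within 21 bp of the window's upper end and cannot be seen. Id2 has only 2 peaks of each mark, side by side, whereas at Id3 a single H3K27ac peak of 10730 bp covers 3 H3K4me3 peaks.

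Peaks were ranked by a score that the authors deposited with each peak. Many scores are tied at 3100, called the ceiling here, so peaks tied there cannot be ordered among themselves. Of 7106 H3K27ac peaks scoring 3100 or more, 6863 were tied at 3100, as were 9042 of 9117 H3K4me3 peaks. Peaks scoring above 3100 were counted as at the ceiling. Of the H3K27ac members 11 of 29 were at the ceiling, against 24.1% of all H3K27ac peaks, and of the H3K4me3 members 9 of 23, against 50.3% of all H3K4me3 peaks. The 11 H3K27ac members at the ceiling all overlapped H3K4me3, as did 90.8% of all such H3K27ac peaks. Member peaks had a median width of 2217 bp for H3K27ac (1782 bp in the whole list) and 1380 bp for H3K4me3 (1807 bp in the whole list). Widths of 4000 bp or more were found in 7 of the 29 H3K27ac members, against 10.9% of all H3K27ac peaks, and in 3 of the 23 H3K4me3 members, against 5.83% of all H3K4me3 peaks.

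**Figure D2:**
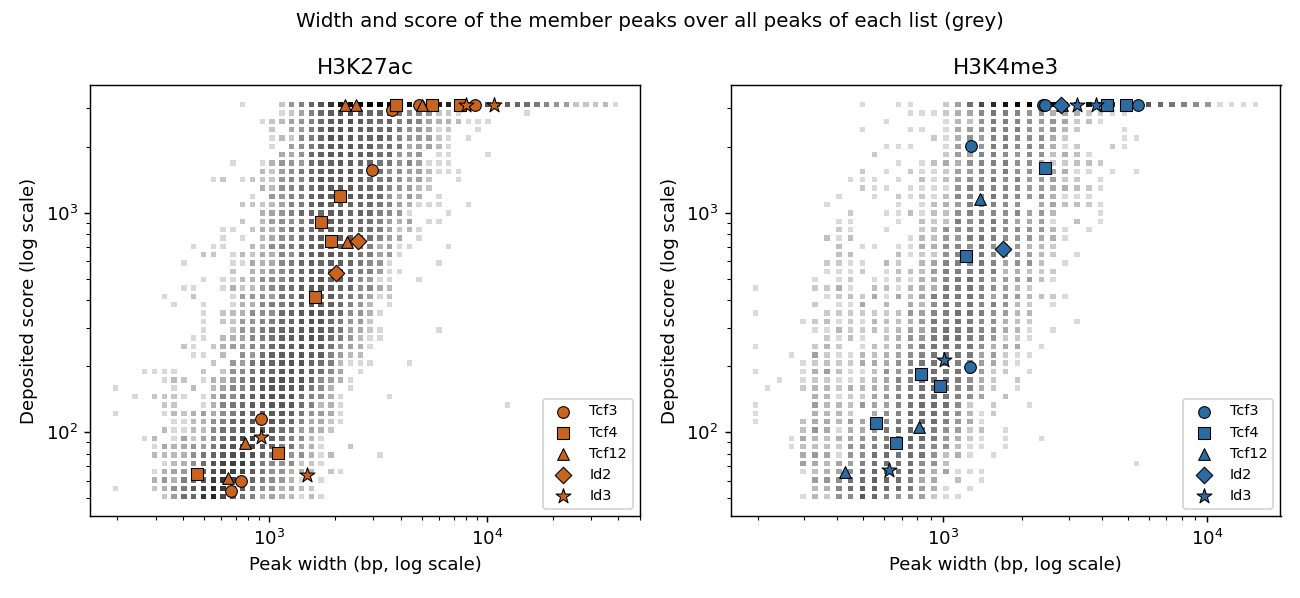
Width (bp, log scale) against deposited score (log scale) of the member peaks, by gene, over all peaks of each list in grey, darker where more peaks fall. All members of 4000 bp or more sit on the line of tied scores at 3100, while the Id2 H3K27ac peaks, of 2030 and 2550 bp, score 531.52 and 745.71.

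Tcf3 had the densest of the 5 windows, which were set at unlike lengths, from 60 to 380 kb. It held 7 H3K27ac and 5 H3K4me3 peaks in 60 kb, 1.17 and 0.833 per 10 kb, where the autosomes and X averaged 0.112 and 0.0686. H3K27ac covered 22.6 kb (37.7% of the window) and H3K4me3 12.9 kb (21.4%). Among the 60 kb tiles of the genome that held a peak of the same mark, 1.44% had at least as much H3K27ac length and 0.697% at least as much H3K4me3 length. The window is not Tcf3 alone: in the RefSeq gene order, Uqcr11 and Mbd3 come next on the low-coordinate side and Onecut3 on the other. No peak was assigned to any of these genes, because no mm9 annotation was used.

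The widest peaks of both marks at Tcf3 lay together. An H3K27ac peak of 8800 bp (79890844 to 79899643) was at the ceiling and ranked 434 of 29468 by width. It contained an H3K4me3 peak of 5482 bp (79892105 to 79897586), also at the ceiling, which ranked 271 of 18142. Acetylation ran past the H3K4me3 peak by 1261 bp on the low-coordinate side and 2057 bp on the other. On the low side it was preceded by 3 weak H3K27ac peaks of 668 to 915 bp, scoring 53.96, 60.29 and 115.31, and these 3 were the only H3K27ac peaks of the window without H3K4me3.

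The other Tcf3 sites differed in which mark was at the ceiling. Near the low end, an H3K27ac peak of 4877 bp at the ceiling (79860007 to 79864883) covered 2 H3K4me3 peaks of 2398 and 1276 bp, which scored 3100 and 2005.48. In the next pair H3K27ac was below the ceiling: an H3K27ac peak of 2957 bp scoring 1564.79 (79868357 to 79871313) met an H3K4me3 peak of 2432 bp at the ceiling (79867972 to 79870403). Neither mark was at the ceiling in the pair nearest the high end, which had 3664 bp of H3K27ac scoring 2946.58 (79904625 to 79908288) around 1272 bp of H3K4me3 scoring 198.86 (79905631 to 79906902).

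Tcf4 carried the most peaks of the 5 genes, spread over a window of 380 kb. It held 10 H3K27ac and 8 H3K4me3 peaks, which covered 29.6 kb (7.79%) and 15.8 kb (4.16%). That made it less dense than Tcf3, with 0.263 and 0.211 peaks per 10 kb. Among 380 kb tiles with a peak, 15.2% had at least as much H3K27ac length and 15.0% at least as much H3K4me3 length. The window stood by itself: the next H3K27ac peak lay 169.7 kb below it and 760.6 kb above it.

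At 2 sites in the Tcf4 window both marks were at the ceiling. The first was near the low end, where 3806 bp of H3K27ac (69503281 to 69507086) lay wholly inside 4178 bp of H3K4me3 (69503082 to 69507259). The second was 247 kb further on, where 5566 bp of H3K27ac (69750474 to 69756039) enclosed 4926 bp of H3K4me3 (69750945 to 69755870). The H3K4me3 peaks of these sites ranked 890 and 447 of 18142 by width.

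At the other Tcf4 sites with both marks, H3K27ac was the wider one. The widest H3K27ac peak, 7492 bp at the ceiling (69817002 to 69824493), held only a 975 bp H3K4me3 peak scoring 162.06, so 13.0% of its length was shared. An H3K27ac peak of 3821 bp at the ceiling (69573324 to 69577144) enclosed 2433 bp of H3K4me3 scoring 1597.80. A smaller site had 2108 bp of H3K27ac scoring 1196.21 around 1230 bp of H3K4me3 scoring 637.14, and another had 1724 bp of H3K27ac scoring 906.52 over 2 small H3K4me3 peaks scoring 184.49 and 89.02. The 4 H3K27ac peaks without H3K4me3 measured 465 to 1915 bp and scored 64.47 to 740.59, all below the ceiling. The 1 H3K4me3 peak without H3K27ac measured 560 bp, scored 110.02 and lay 13.9 kb from the nearest H3K27ac peak.

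Tcf12 had the fewest peaks for its length among the 5 windows. Its densities were still above the autosome and X averages, 0.112 per 10 kb for H3K27ac and 0.0686 for H3K4me3. Its window of 300 kb held 6 H3K27ac and 4 H3K4me3 peaks, 0.200 and 0.133 per 10 kb, covering 11.2 kb (3.73%) and 5.44 kb (1.81%). Among 300 kb tiles with a peak, 39.9% had at least as much H3K27ac length and 48.7% at least as much H3K4me3 length, so its coverage was not far from the median of such tiles, 8.15 and 5.24 kb. In no other of the 5 windows was so little of the H3K4me3 length also under H3K27ac, 69.6% against 82.8 to 100% elsewhere.

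Both Tcf12 sites that lay wholly inside the window and had both marks carried H3K27ac at the ceiling. At the first, 2505 bp of H3K27ac (71957980 to 71960484) and 2823 bp of H3K4me3 (71957566 to 71960388) coincided, both at the ceiling. At the second, 160 kb away towards the low end, an H3K27ac peak of 4991 bp at the ceiling (71797707 to 71802697) held 1380 bp of H3K4me3 scoring 1154.86 (71798741 to 71800120). Whether these sites match the CpG-rich and CpG-free RefSeq starts printed above was not tested, since the builds differ. An H3K27ac peak of 2260 bp scoring 736.94 (71841393 to 71843652) lay 41.3 kb from any H3K4me3, further than any other H3K27ac member.

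The remaining Tcf12 peaks were weak or belonged to the window's edge. The other 2 H3K27ac peaks without H3K4me3 scored 89.41 and 62.17, and the 2 H3K4me3 peaks without H3K27ac scored 66.29 and 105.76. The sixth H3K27ac peak (71979980 to 71982196) had 21 bp inside the window and 2196 bp beyond it. Its partner, an H3K4me3 peak at the ceiling of almost the same extent (71980003 to 71982221), began just outside and is not a member.

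Id2 was the only 1 of the 5 windows without an H3K27ac peak at the ceiling. It held 2 peaks of each mark within 6.23 kb in the middle of a 60 kb window. Each of the other 4 windows had between 2 and 4 H3K27ac peaks at the ceiling, counting the Tcf12 and Id3 peaks that lie mostly beyond the window's edge. The H3K27ac peaks measured 2030 bp (25779811 to 25781840) and 2550 bp (25782831 to 25785380) and scored 531.52 and 745.71, close to the list median of 709.8. The H3K4me3 peaks measured 2803 bp (25779150 to 25781952) and 1691 bp (25783367 to 25785057) and scored 3100 and 681.64.

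The ceiling H3K4me3 peak at Id2 met an H3K27ac peak of low score for its class. It extended past the H3K27ac peak on both sides, by 661 and 112 bp, so 72.4% of its length was shared. Among 9117 H3K4me3 peaks in that class (scores of 3100 or more), 500 (5.48%) had a best H3K27ac score as low as that at Id2 or no H3K27ac at all. This share was not recomputed with peaks within 1000 bp joined, which merges the Id2 peak scoring 531.52 with its neighbour scoring 745.71. Of the other 8 ceiling H3K4me3 peaks in the 5 windows, 7 met a ceiling H3K27ac peak and 1, at Tcf3, met the peak scoring 1564.79, a value that 21.9% of the class did not exceed. Scores of the 2 libraries are not on 1 scale, so this is a rank within each list and not a ratio of the marks.

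**Figure D3:**
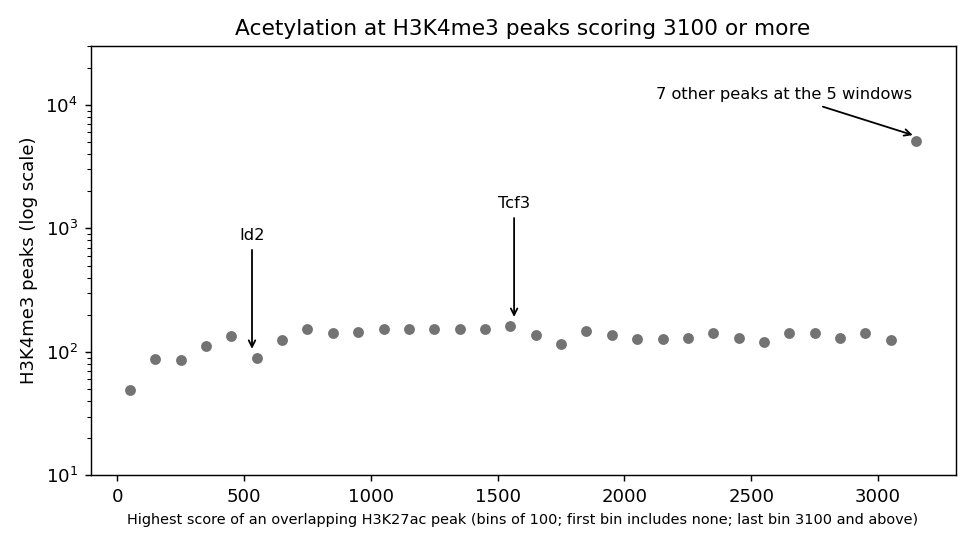
For all H3K4me3 peaks scoring 3100 or more, the number (log scale) by the highest score of an overlapping H3K27ac peak, in bins of 100. Arrows mark the 9 such peaks of the 5 windows: Id2 at 531.52, 1 Tcf3 peak at 1564.79, and 7 in the last bin, at 3100 and above.

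Acetylated length barely exceeded H3K4me3 length at Id2, 4.58 against 4.49 kb, or 1.02 times. In the other windows it was 1.76 times at Tcf3, 1.88 times at Tcf4, 2.06 times at Tcf12 and 2.12 times at Id3. Over the whole lists the lengths were 65.8 Mb for H3K27ac and 35.7 Mb for H3K4me3, so a longer H3K27ac reach is not particular to these windows. Depth is unknown for both libraries, and these length ratios may depend on it. At Id2, 0.859 kb of H3K27ac lay outside H3K4me3, or 1.74 kb when peaks within 1000 bp were joined, which merged the Id2 H3K27ac peaks into 1. Among the 60 kb tiles with a peak, 36.2% had at least as much H3K27ac length as Id2 and 21.5% at least as much H3K4me3 length. Outside the window, the next H3K27ac peaks lay 8.54 kb below and 38.8 kb above. In the RefSeq gene order Id2 lies between Kidins220 and Rnf144a.

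**Figure D4:**
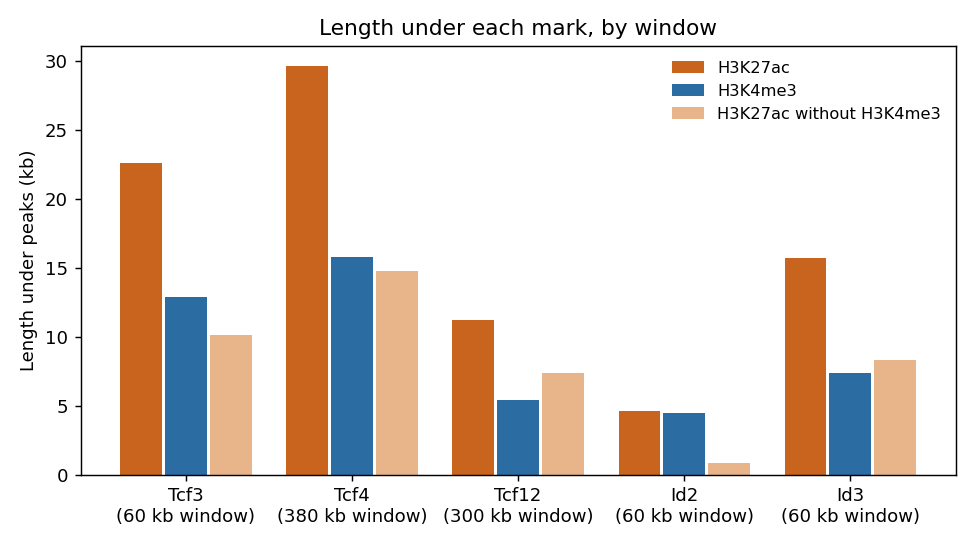
Length in kb under H3K27ac peaks, under H3K4me3 peaks, and under H3K27ac but not H3K4me3, for each window (bars start at 0; no replicates, so no error bars). H3K27ac exceeds H3K4me3 clearly in 4 windows, while at Id2 the lengths are 4.58 and 4.49 kb.

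At Id3 a wide acetylated block surrounded narrower H3K4me3. Its H3K27ac peak of 10730 bp at the ceiling (135694903 to 135705632) was the widest of all members and ranked 253 of 29468 by width. Beneath it lay 3 H3K4me3 peaks of 626, 3222 and 1012 bp, scoring 67.38, 3100 and 212.96. From the middle, ceiling H3K4me3 peak (135699068 to 135702289), acetylation ran on for 4165 bp towards the low end and 3343 bp towards the high end. It was the only 1 of the 29 H3K27ac members to meet 3 H3K4me3 peaks, as did 0.282% of all H3K27ac peaks.

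The rest of the Id3 window had a second wide block at its edge and 2 weak peaks. An H3K27ac peak of 8008 bp at the ceiling (135727457 to 135735464) began inside the window and ran 5464 bp past its end. It lay over a ceiling H3K4me3 peak of 3801 bp (135727471 to 135731271). Beyond the window it also covered an H3K4me3 peak of 776 bp scoring 81.73 (135733830 to 135734605), which is not a member. In the RefSeq gene order E2f2, a cell cycle transcription factor, is the next gene on that side and Rpl11 on the other, and the block was not assigned to a gene. The 2 weak H3K27ac peaks, without H3K4me3, measured 1490 and 913 bp and scored 63.82 and 95.03. In the window, H3K27ac covered 15.7 kb (26.1%) and H3K4me3 7.39 kb (12.3%), and all of the H3K4me3 length was under H3K27ac. Among 60 kb tiles with a peak, 4.44% had at least as much H3K27ac and 6.68% at least as much H3K4me3.

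H3K27ac peaks up to 12.5 kb apart were stitched into regions, as is done to find dense acetylated clusters, and ranked by summed peak length. The 5 windows touched 17 of 16134 regions. Of these 17, 2 (11.8%) were long, meaning above 11.2 kb of summed length, against 6.40% of all regions. They were the Tcf3 cluster of 5 peaks (79885612 to 79908288, 14.8 kb, rank 634) and the Id3 cluster of 3 peaks (135678487 to 135705632, 13.1 kb, rank 780). A further cluster, of 3 peaks and 9.77 kb, fell short of the limit at rank 1318. Only 2 of its peaks were in the Tcf3 window, and it ran 5.65 kb beyond the window. The call at Id3 was lost with a stitching distance of 20000 bp, which left 1 long region, at Tcf3.

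At Tcf4 and Tcf12 the H3K27ac peaks were scattered. The 10 Tcf4 peaks fell into 6 regions of 1 or 2 peaks, the longest with 7.49 kb and rank 1982. The 6 Tcf12 peaks fell into 6 regions of 1 peak each, the longest with 4.99 kb and rank 3523. The 2 Id2 peaks made 1 region of 4.58 kb at rank 3915. Ranked by summed score instead, the best region stood at 1029 for Tcf3, 3223 for Id3 and 9192 for Id2.

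**Figure D5:**
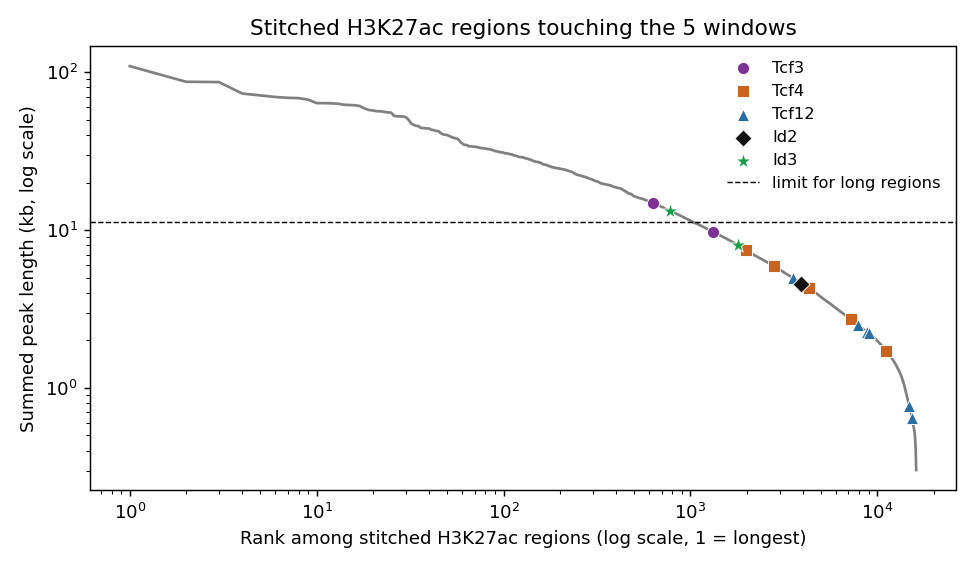
Summed H3K27ac peak length (kb, log scale) against rank (log scale) for all 16134 stitched regions (grey line), with the 17 regions that touch the 5 windows marked by gene. The dashed line is the limit for long regions, 11.2 kb; 1 Tcf3 and 1 Id3 region lie above it.

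The 12 H3K27ac members without H3K4me3 were narrower and lower in score, at the median, than such peaks in the whole list. They had a median width of 914 bp and a median score of 84.89, against 1252 bp and 188.2 for all H3K27ac peaks without H3K4me3. The 3 highest of these scores were 740.59 and 412.98 at Tcf4 and 736.94 at Tcf12. They lay at a median of 12.0 kb from H3K4me3 (range 1.36 to 41.3 kb), against 17.1 kb for all such peaks. The 12 peaks made up 13.5 kb of the 41.5 kb of acetylated length outside H3K4me3 in the 5 windows. The other 28.0 kb were the parts of H3K27ac peaks that lay past or between the H3K4me3 peaks they touched.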

How the data were processed

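ChIP-seq peak lists of 1 H3K27ac and 1 H3K4me3 library were used; sample titles gave the groups. MACS and the build mm9 are named in the submitters' processing notes; per the series' design text, an IgG control was made for the marks, and it had no peak list here. The version, aligner, filters and depth are not stated in those notes, so the depth behind each peak is unknown. Each peak carries the authors' deposited score, which no header or label defines. MACS can write a p-value on a log10 scale in this place, on which a p of 1e-05 becomes 50, and the lowest score was 50.01 in both lists; that the score is this quantity is not stated. Scores were used only to rank or filter within a list.

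A deeper library gives more weak peaks, so counts are not comparable between marks. Positions are counted from 1. Peaks overlapped when they shared at least 1 bp. H3K27ac peaks within 12.5 kb were stitched, and regions were called long past the bend of the rank curve, where rank and length, each scaled to its maximum, change at an equal rate. Tiles of each window's size, laid from position 1 of every autosome and X and counted where they held a peak of the mark, served as background, beside the share over all peaks (exact 95% Clopper-Pearson intervals, counting error only: 51.7 to 52.9% of H3K27ac peaks with H3K4me3 and 85.6 to 86.6% of H3K4me3 peaks with H3K27ac). Calculations used SciPy 1.17.1, pandas 2.3.3, NumPy 2.4.6 and Matplotlib 3.10.9 under Python 3.11.15, and the overlap and stitching steps were tested on simulated data.

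No mm9 annotation or genome was used, so peaks were not assigned to genes; other genes of the pathway, cell type markers and genes of like pattern were not analysed here. Gene order, strands and promoter sequences came from RefSeq (GRCm38.p6). The member genes, windows and lists were chosen with earlier results of these data known. In each window every H3K4me3 peak, the widest and highest-scoring H3K27ac peaks and, as counts and ranges, the H3K27ac peaks without H3K4me3 were named.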

Additional observations from a re-analysis of the deposited data

How the results depend on the processing

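When peaks scoring under 100 were left out of both lists, 81.0% of the H3K27ac members overlapped H3K4me3 instead of 58.6%. With the H3K27ac list shortened to 18142 peaks, 85.0% did. Both alternatives remove low-scoring peaks, and each left 17 overlapping members, of 21 and of 20. The share over all H3K27ac peaks was not computed under these settings, so 81.0% and 85.0% cannot be set against the 52.3% of the full list. In that list, peaks without H3K4me3 had a median score of 188.2, against 2413.8 for those with it. The best rank of a stitched region, at Tcf3, was 634 of 16134. It became 351 of 20625 with stitching at 5000 bp and 254 of 13269 at 20000 bp. It was 1029 of 16134 when regions were ranked by summed score. The totals differ, so ranks at different stitching distances are not on 1 scale. At 20000 bp the Tcf3 clusters, 14.3 kb apart, are also joined, so the region is not the same. By summed score the best rank at Id3 was 3223 instead of 780, and at Id2 9192 instead of 3915. Tcf4, at 2118 instead of 1982, then came before Id3. Long regions at the 5 windows numbered 2 and fell to 1 at 20000 bp, where Id3 had 0; the cause was not tested. Of 174 alternative values, 157 stayed within the interval or 1.5 times the reported value and 17 moved, 6 of them over all windows. Some could not move, such as H3K4me3 counts and lengths when only the H3K27ac list was shortened. Totals and single windows were both counted, so these values are not independent. At single genes, H3K27ac peaks at Id3 numbered 2 instead of 4 with scores of at least 100, and joining peaks within 1000 bp gave 1.74 instead of 0.859 kb of H3K27ac outside H3K4me3 at Id2, with 1 H3K27ac peak there instead of 2. No paired analysis was possible because each mark has 1 library and no result comes from a test. Depth is unknown, so weak or missing peaks cannot be separated from limited sequencing.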
